A study of Mus musculus with 8 samples.

Results

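The cells described here are C1q high macrophages of low RNA content from the mouse colon. They were chosen by their measured UMIs, genes and transcripts, as droplet barcodes with 631 to 1999 UMIs (unique molecular identifiers, each marking 1 captured RNA molecule), at least 399 genes, at most 5% of UMIs from mitochondrially encoded genes and no UMI of a hemoglobin alpha or beta gene. The summed UMIs of C1qa, C1qb and C1qc had to reach 60 per 10000. Cells with a UMI of Xcr1, Clec9a, Cd3d, Cd3e or Cd3g, and cells with 10 or more UMIs of Dcn, Col3a1 and Col1a2 together, were left out. In all, 280 cells met this rule, 8.71% of the 3213 cells that passed the filters. The data held 5947 barcodes in all. They are called members below. Another 721 cells met the same C1q rule with 2000 UMIs or more and are called deeper C1q high cells.

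Colonic lamina propria cells that were CD11b positive and expressed CCR2 or CD64 had been sorted by flow cytometry from 8 female mice and sequenced as single cells from the 3' end of each RNA. Every mouse was of the strain CD98ΔCX3CR1, in which Cre recombinase fused to an estrogen receptor and a yellow fluorescent protein are driven by the Cx3cr1 locus, and in which exon 3 of Slc3a2, the gene of CD98hc, is floxed. The 4 control mice received corn oil and the 4 cKO mice received tamoxifen, 100 µl at 20 mg/ml daily for 5 days per the labels, and the cells were collected on day 7. Mice were littermates of 6 to 12 weeks. As tamoxifen was given to the cKO mice only, an effect of the drug cannot be told apart from one of the deletion.

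C1q is the first component of the classical complement pathway, and in tissues it is made mainly by macrophages. Macrophages of the colonic lamina propria are replenished by blood monocytes, and as these mature they lose Ly6C and CCR2 and gain F4/80, MHC class II and CX3CR1. CCL8, CCL7, CCL12 and PF4 are secreted chemokines, and FOLR2 is a folate receptor of resident macrophages. CD98hc is the heavy chain that carries amino acid transporters such as LAT1 to the cell surface.

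The mice gave 64, 41, 10, 45 members in control mice 1 to 4 and 11, 33, 32, 44 in cKO mice 5 to 8, with 12433 to 72896 UMIs in the members of a mouse. Control mouse 3 and cKO mouse 5 gave 10 and 11 members and few cells of any kind, and comparisons of summed counts therefore used the 6 other mice, with 259 members and 687 deeper C1q high cells. The median member held 1159.5 UMIs against 5511 in deeper C1q high cells, a difference that the rule made. Within the counts of C1q high cells by UMIs, no gap separated the groups: 21 members held 1800 to 1999 UMIs and 23 deeper cells held 2000 to under 2200. Of all 586 cells kept with under 2000 UMIs, 47.8% were members, whereas 27.4% of the cells with 2000 or more met the C1q rule. A further 86 barcodes of the same UMI window and C1q level failed only the mitochondrial limit and 40 failed only the gene limit. A doublet caller marked 0 members and 17 of the 721 deeper cells. Barcodes are given as running codes in the files, and 25 codes occur in more than 1 library, among them those of 3 members and 5 deeper cells.

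**Figure D1:**
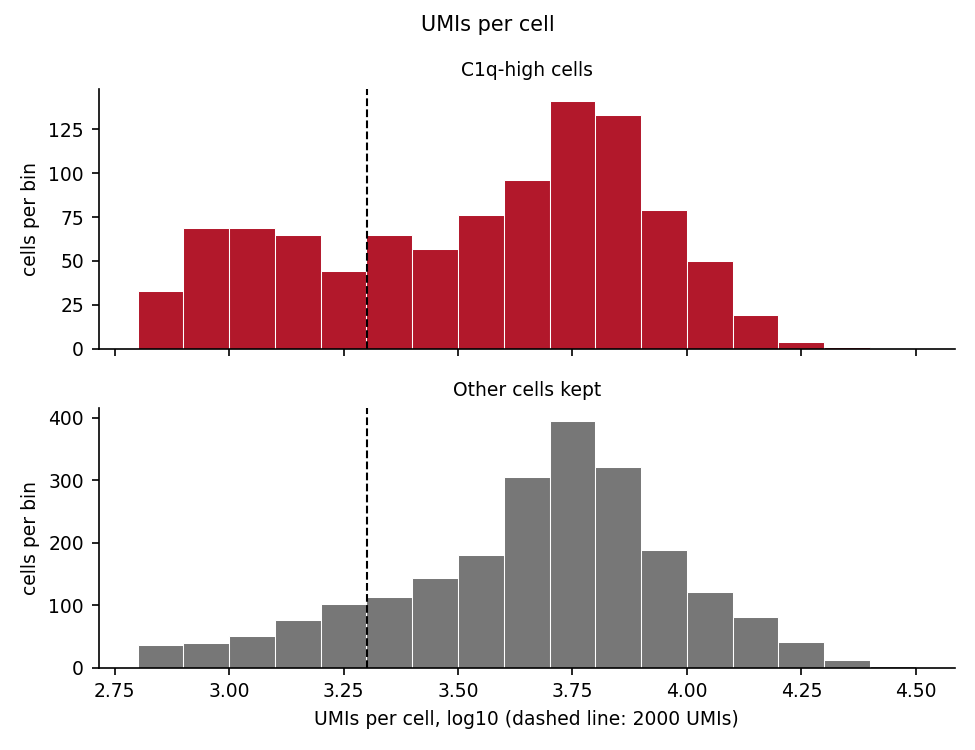
Number of cells by UMIs per cell (log10 axis, bins of equal width) for C1q high cells (upper panel) and all other cells kept (lower panel), with a dashed line at 2000 UMIs. Of the C1q high cells 280 lie left of the line and 721 right of it, and of the other cells 306 and 1906.

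To compare cells of unequal depth, every cell was thinned to 631 UMIs for shares of cells with a UMI, and deeper C1q high cells were thinned to the depths of the members for comparisons of summed counts. Levels are in CPM, a gene's UMIs scaled to the summed UMIs of the cells of a mouse, and are given as mean ± SD over mice. The C1q genes chose the cells. At 631 UMIs, C1qa was detected in 96.1% of members, in 93.9% of deeper C1q high cells, and in 17.0% of the 306 other cells of low depth.

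Ccl8, Pf4 and Folr2 belong to the label and were known beforehand to lead these cells, so their shares are a description only. Ccl8 was detected in 50.7% of members at 631 UMIs, in 12.9% of deeper C1q high cells and in 5.88% of other cells of low depth. Pf4 was detected in 54.3%, 25.7% and 5.56% of the same cells, and Folr2 in 11.4%, 3.05% and 1.31%. Adgre1, which encodes F4/80, was found in 28.6% of members and 28.3% of deeper C1q high cells, against 4.9% of other cells of low depth. These 4 shares were above those in other cells of low depth, which have a median of 1390 UMIs unthinned. Csf1r, the receptor of macrophage colony-stimulating factor, was detected in 22.1% of members, 39.0% of deeper cells and 20.3% of other cells of low depth. By this gene members were thus close to the other cells of low depth. Mrc1, the mannose receptor, was detected in 11.1%, 17.8% and 5.88% of the same cells.

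Ccl8, Pf4 and Folr2 were known from earlier work on these data to lead these cells, so their levels are given without a test. Ccl8 stood at 2908, 3125 and 3079 CPM in control mice 1, 2 and 4, and 4478, 4689 and 5297 CPM in cKO mice 6, 7 and 8. In deeper C1q high cells of the same mice it stood at 807, 1107 and 161 and at 168, 169.8 and 331 CPM. In each of the 6 mice the members were above the deeper cells, with means of 3929 ± 1016 CPM and 457 ± 403 CPM. Pf4 had means of 2056 ± 823 CPM in members and 819 ± 372 CPM in deeper cells, and Folr2 of 229 ± 109 CPM and 57.2 ± 43.5 CPM.

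The level of Ccl8 in C1q high cells stepped down with the depth of the cell. It was 5952 ± 1909 CPM in cells of 631 to 999 UMIs, 3267 ± 1269.9 CPM at 1000 to 1999, 500.4 ± 402 CPM at 2000 to 3999, 419 ± 375 CPM at 4000 to 7999 and 377 ± 368 CPM from 8000 UMIs upward (n = 6 mice). Pf4 went from 3022 ± 1068 CPM and 1710.1 ± 817 CPM in the 2 bins of members to 1078 ± 526 CPM, 757 ± 428 CPM and 369.5 ± 252 CPM. Cells outside the C1q rule held less of both, and their means too were highest in the shallowest bin: over the same 5 bins Ccl8 was at 456, 146, 45.1, 47.0 and 32.4 CPM and Pf4 at 182, 104, 102, 42.3 and 17.1 CPM. Just inside the UMI limit, members of 1800 to 1999 UMIs held 3386 CPM of Ccl8, pooled over mice, against 608 just outside it. Just inside the C1q limit, 12 members of 60 to 69 C1q UMIs per 10000 held 883 CPM of Ccl8, against 1556 in 13 cells of 50 to 59. Malat1, a nuclear RNA described next, was at 26610.2 CPM in the members just inside the UMI limit and 28142 CPM just outside it, and at 38098 CPM in the members just inside the C1q limit, so that the low Malat1 of the members as a whole was not seen in those near either limit.

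Most members had no Malat1 UMI. Malat1 (GRCm38, chromosome 19, 5795690 to 5802672) is a long noncoding RNA that is kept in the nucleus and is among the most abundant RNAs of nearly every cell type. At 631 UMIs, 192 of 280 members (68.6%) had no Malat1 UMI, against 23 of 721 deeper C1q high cells (3.19%), 24 of 306 other cells of low depth (7.84%) and 24 of 1906 other cells of 2000 UMIs or more (1.26%). The share was 70.3%, 63.4%, 80% and 57.8% in the members of control mice 1 to 4 and 63.6%, 63.6%, 78.1% and 77.3% in those of cKO mice 5 to 8. It was above every value of the deeper cells, whose highest was 7.25%, in each of the 8 mice. It did not differ between conditions in members beyond the spread of mice (cKO minus control 2.79 percentage points, exact permutation test, two-sided, p = 0.686, n = 4 and 4 mice). In deeper cells the share was higher in cKO by 4.16 points (exact permutation test, two-sided, p = 0.0286, the smallest value that 4 against 4 mice allow), a comparison chosen after its values were seen and resting on 0 to 5 cells per mouse. In the counts as deposited, not thinned, these shares were 0.971%, 2.44%, 0% and 2.48% in control mice 1 to 4 and 0%, 3.45%, 1.45% and 5.8% in cKO mice 5 to 8, and the groups overlapped.

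**Figure D2:**
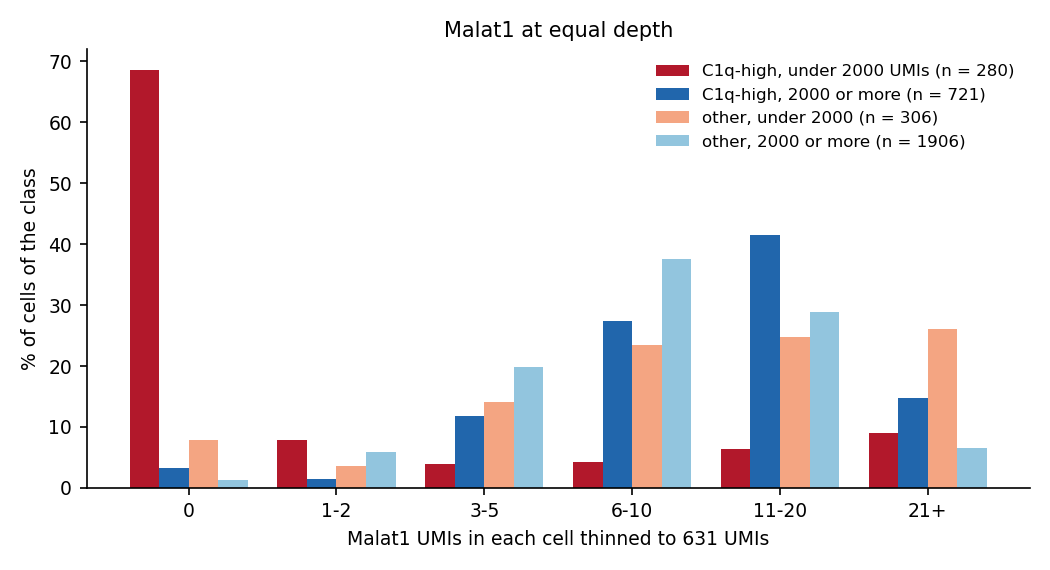
Percent of the cells of each class (y axis) by their Malat1 UMIs after each cell was thinned to 631 UMIs (x axis), for members (red), deeper C1q high cells (blue), other cells under 2000 UMIs (orange) and other cells of 2000 or more (light blue). At 0 UMIs the bars are 68.6%, 3.19%, 7.84% and 1.26%.

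The members differed among themselves in RNA content. In the counts as deposited, 181 members had no Malat1 UMI and 99 had at least 1, with a median of 19 in the latter. The 181 cells had a median of 1091 UMIs, 538 genes, 0.305% mitochondrial UMIs and 200.2 C1q UMIs per 10000, and 34 of them had no mitochondrial UMI. The 99 cells had a median of 1274 UMIs, 632 genes, 1.92% mitochondrial UMIs and 126 C1q UMIs per 10000. For comparison, the median mitochondrial share was 1.73% in deeper C1q high cells and 2.17% in other cells of low depth.

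Levels followed the same split, given here as a description since the cells were divided by their own RNA. Ccl8 stood at 5137 ± 675 CPM in members without Malat1, 2144 ± 1503 CPM in members with it and 415 ± 355 CPM in deeper C1q high cells (n = 6 mice). Pf4 stood at 2413 ± 1014 CPM, 1498 ± 1028 CPM and 658 ± 369 CPM, so that both means were highest in members without a Malat1 UMI. The nuclear RNAs Xist and Neat1 were low in the same cells. Xist, the RNA that coats the inactive X chromosome of female cells, was at 17.3 ± 20.6 CPM without Malat1, 990.3 ± 361 CPM with it and 796 ± 144 CPM in deeper cells. Neat1, the scaffold of nuclear paraspeckles, was at 11.3 ± 17.5 CPM, 549 ± 383 CPM and 399 ± 123 CPM. Short-lived transcripts of transcription factors were low too: Jun was at 199.6 ± 69.1 CPM, 996 ± 523 CPM and 1000.1 ± 416 CPM and Klf6 at 90.7 ± 72.0 CPM, 876 ± 508 CPM and 666 ± 117 CPM. Csf1r was at 286 ± 198 CPM, 849 ± 261 CPM and 773 ± 154 CPM, so members with Malat1 were near the deeper cells in this receptor and members without it were not. Abundant cytoplasmic transcripts did not move as one. Tmsb4x, which encodes the actin monomer binding thymosin beta 4, was at 40748 ± 4647 CPM, 28260.5 ± 2652 CPM and 25137 ± 1386 CPM, and Ftl1, the ferritin light chain, at 15654 ± 1387 CPM, 9174 ± 1609 CPM and 9104 ± 439.7 CPM. The MHC class II transcript H2-Ab1 was at 10498 ± 2297 CPM, 12180.1 ± 2896 CPM and 16738 ± 2458 CPM, lowest without Malat1, and Cd74, the invariant chain, at 28064 ± 3604 CPM, 23198 ± 3482 CPM and 32774 ± 3315 CPM. Whether the members without Malat1 were whole cells was not tested.

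Members were next compared with deeper C1q high cells of the same mice over all genes, with the mouse as a block, in an edgeR quasi-likelihood test with Benjamini-Hochberg adjustment at a false discovery rate of 0.05. Ccl2 and 9 of 28 resident macrophage genes, Ccl7 and Ccl12 among the 9, were higher in members. In turn, 17 of 28 immediate early and heat shock genes, 9 of 16 monocyte genes, 5 of 11 MHC class II genes and 3 of 6 nuclear-retained RNAs were lower. Of 4865 genes tested, 70 were higher in members (1.44%) and 140 were lower (2.88%). The median log2 fold change of all genes was -0.14, and each value below is read against it. Beside these, 180 genes had a higher CPM in the members of 6 of 6 mice (3.7%) and 294 a lower one (6.04%). Without thinning, 34 genes were higher and 410 lower, and the median of all genes was -0.48. Members with a Malat1 UMI numbered 92 in the 6 mice. Their fit took sums of at least 10 cells, so cKO mouse 7, with 7 such members, was left out. In that fit of fewer cells and mice, 0 genes were higher in the edgeR test, where 23 had an unadjusted p under 0.05. There 40 were lower, 21 of which are among the 140. In members without one (167 cells), 82 were higher and 535 lower. Separate mice stand behind these p-values. With the mouse as a block, they measure how the difference between depth classes varied from mouse to mouse.

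Among ligands, Ccl7, Ccl12 and Ccl2, which attract monocytes through CCR2 and related receptors, were higher in members. Ccl7 stood at 1372, 460.1 and 969 CPM in control mice 1, 2 and 4, and 1561, 1597 and 1358 CPM in cKO mice 6, 7 and 8. Deeper cells held 680.1, 671 and 217 and 533, 425 and 306 CPM. Ccl7 was higher in the members of 5 of 6 mice (log2 fold change 1.30, SE 0.16, adjusted p = 5.58e-13 by edgeR). Ccl12 was higher as well (981 ± 547 CPM against 635 ± 266 CPM, log2 fold change 0.60, SE 0.16, adjusted p = 0.00921 by edgeR). Ccl2 stood at 695 ± 331 CPM and 445 ± 209 CPM and passed the test (log2 fold change 0.61, SE 0.18, adjusted p = 0.0231 by edgeR). Other chemokines were lower: Cxcl2, a neutrophil attractant, was at 1667 ± 818 CPM against 4061 ± 1599 CPM (log2 fold change -1.31, SE 0.13, adjusted p = 1.17e-21 by edgeR). Over the chemokine list, 3 of 14 tested genes were higher and 2 lower in members, with a median log2 fold change of -0.08.

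Among the tested genes that were higher, Cxcl13, a B cell attracting chemokine, had the largest fold change, and it rested on few cells. Its 137 UMIs lay in 21 of 280 members, with 86.9% of them in 10 cells and up to 19 in 1 cell. It stood at 947, 38.3 and 19.0 CPM in control mice 1, 2 and 4, and 333, 709.6 and 427 CPM in cKO mice 6, 7 and 8. Its levels in deeper cells were 126, 28.7 and 0 and 70.1, 36.4 and 0 CPM. The levels of mice overlapped between the depth classes, while within each of the 6 mice the members were above (log2 fold change 3.03, SE 0.29, adjusted p = 1.17e-21 by edgeR).

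Some genes of resident macrophages were higher, while most of their list did not pass. Over the list of resident macrophage genes, 9 of 28 tested genes were higher and 2 lower in members, with a median log2 fold change of 0.34. Ccl7 and Ccl12, given above, are among the 9. Selenop, a secreted selenium carrier, stood at 4129, 4409.7 and 2984 CPM in control mice 1, 2 and 4, and 2303, 2306 and 3435 CPM in cKO mice 6, 7 and 8. Deeper cells of these mice held 2773, 3368 and 1232 and 911, 983 and 1457 CPM (log2 fold change 0.94, SE 0.13, adjusted p = 2.94e-11 by edgeR). Members were above deeper cells in 6 of 6 mice. Igf1, a growth factor, was at 108 ± 74.7 CPM and 36.2 ± 31.8 CPM (log2 fold change 1.44, SE 0.42, adjusted p = 0.017 by edgeR), and its 42 UMIs lay in 34 members. Igf1 passed in 6 of 11 alternatives, with an adjusted p of up to 0.695 by edgeR. These kept the mouse block, and the fits that dropped 1 mouse at a time are not among them. Fcrls, an Fc receptor-like protein, had a log2 fold change of 0.95, and the tetraspanins Cd81 and Cd63 of 0.90 and 0.83, with adjusted p of 3.73e-05, 5.84e-08 and 7.45e-06 by edgeR. Apoe, a lipid carrier, was the most abundant of the list, at 30598 ± 7849 CPM and 22624 ± 9554 CPM (log2 fold change 0.45, SE 0.10, adjusted p = 0.000346 by edgeR). Csf1r was lower (log2 fold change -0.73, SE 0.17, adjusted p = 0.00144 by edgeR). Adgre1 (539 ± 186 CPM against 466 ± 232 CPM) and Mrc1 (242 ± 66.7 CPM against 263 ± 98.4 CPM) did not pass, with adjusted p of 0.672 and 0.797 by edgeR. With a Malat1 UMI required, in fewer cells and without cKO mouse 7, the resident macrophage list had 0 higher and 0 lower of 25 tested. In members without one it had 9 higher and 6 lower of 27.

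**Figure D3:**
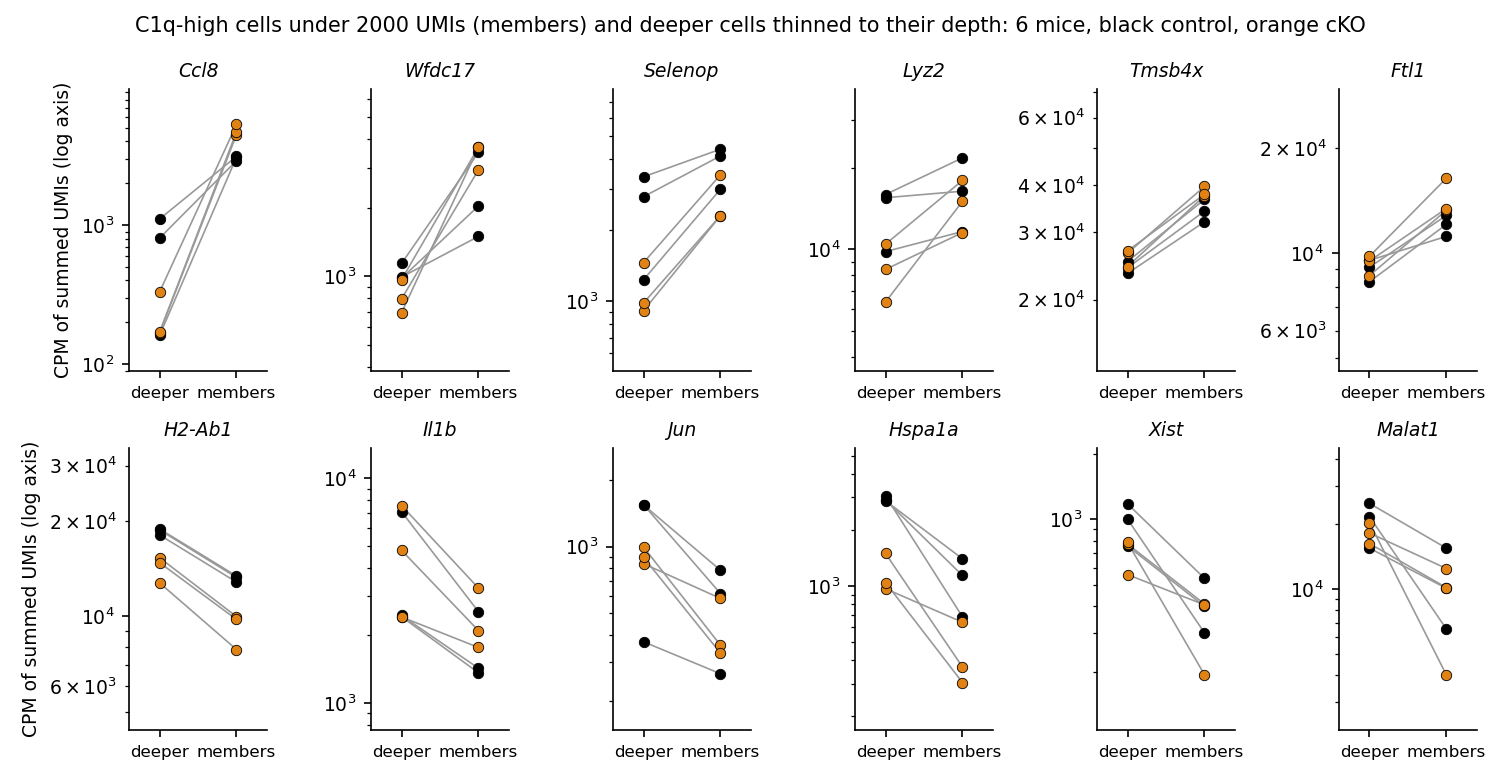
Level (CPM, log axes that differ between panels) of 12 genes in deeper C1q high cells and in members, 1 point per mouse for 3 control (black) and 3 cKO mice (orange), with a line joining the values of a mouse. In each of the 6 mice Ccl8 and Selenop are higher in members, and Malat1, Xist and H2-Ab1 are lower.

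Of the other genes with the largest higher fold changes, Serpinb6a (2.24), a protease inhibitor, Ctla2b (2.20), Clec4d (1.86), a C-type lectin receptor, Pla2g16 (1.95), a phospholipase, and Dynlt3 (1.44), a dynein light chain, were at most 148 CPM on average in members. Ctla2b passed in 4 of 9 and Pla2g16 in 7 of 10 such alternatives. Wfdc17 was the most abundant of them, at 3498, 1495 and 2034 CPM in control mice 1, 2 and 4, and 3685, 3675 and 2930.1 CPM in cKO mice 6, 7 and 8. The deeper cells held 1138, 992 and 980.2 and 967, 692 and 796 CPM (log2 fold change 1.53, SE 0.13, adjusted p = 1.11e-26 by edgeR). It was detected in 199 of 280 members. Hpgd, which degrades prostaglandins, had a log2 fold change of 1.32 (adjusted p = 0.00383 by edgeR). It was -0.25 in members with a Malat1 UMI, a fit of fewer cells and without cKO mouse 7.

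Birc5 (2.33) and Stmn1 (1.97), which are high in dividing cells, and Hist1h2bc (1.50), a histone gene, were also among the named higher genes. Birc5 passed in 5 of 9 alternatives. The UMIs of Birc5 lay in 12 members and those of Stmn1 in 29. Mki67, Top2a and Pclaf, genes of dividing cells, were looked up after these values were seen. At full depth they had UMIs in 3, 1 and 14 of 280 members and in 44, 26 and 25 of 721 deeper cells. These are counts of cells of unequal depth and do not compare levels. Pclaf stood at 56.9 ± 58.9 CPM in members and 16.5 ± 23.9 CPM in thinned deeper cells (n = 6 mice).

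Ferritin genes and a few genes of respiration were higher, whereas most genes of their lists did not pass. Genes of the actin cytoskeleton went both ways. Over the iron and heme list, 3 of 9 tested genes were higher and 1 lower in members, with a median log2 fold change of 0.11. Ftl1 stood at 13182 ± 1773 CPM against 9134 ± 584 CPM (log2 fold change 0.49, SE 0.10, adjusted p = 0.000188 by edgeR), Fth1 had a log2 fold change of 0.38 (adjusted p = 0.00747 by edgeR) and Blvrb, biliverdin reductase B, of 1.02 (adjusted p = 0.00028 by edgeR). Ftl1 has near-identical pseudogene copies, among which reads can be split. Prdx1, a peroxiredoxin, was at 1529 ± 329.6 CPM and 699.8 ± 98.3 CPM (log2 fold change 1.09, SE 0.15, adjusted p = 4.32e-11 by edgeR). Over the nuclear-encoded respiratory chain list, 5 of 61 tested genes were higher and 0 lower in members, with a median log2 fold change of 0.35, and the higher genes were Ndufa2, Ndufa4, Ndufa5, Ndufv3 and Uqcrb. Over the cytosolic ribosomal protein list, 2 of 78 tested genes were higher and 0 lower in members, with a median log2 fold change of 0.07, and over the lysosomal list, 0 of 24 tested genes were higher and 1 lower in members, with a median log2 fold change of 0.06. Over the actin list, 2 of 28 tested genes were higher and 4 lower in members, with a median log2 fold change of 0.11. Cdc42 and Tmsb4x were the higher genes, and Capg, Coro1a, Lcp1 and Vim the lower ones. The most abundant gene of this list, Tmsb4x, was at 36244 ± 2745 CPM and 25104 ± 1335 CPM (log2 fold change 0.50, SE 0.10, adjusted p = 2.74e-05 by edgeR).

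The nuclear RNAs Malat1, Xist and Neat1 were lower in members. Malat1 stood at 6557, 15511 and 10112 CPM in control mice 1, 2 and 4, and 12488, 10188 and 4017 CPM in cKO mice 6, 7 and 8. In deeper cells it stood at 21699, 24991 and 15509 and 18236, 16293 and 20354 CPM. In each of the 6 mice the members were below (log2 fold change -1.11, SE 0.10, adjusted p = 4.92e-23 by edgeR). Xist was at 374 ± 116 CPM against 842 ± 217 CPM (log2 fold change -1.23, SE 0.18, adjusted p = 4.74e-09 by edgeR), and Neat1 at 204 ± 145 CPM against 424 ± 143 CPM (log2 fold change -1.10, SE 0.23, adjusted p = 0.00015 by edgeR). Over the list of nuclear-retained RNAs, 0 of 6 tested genes were higher and 3 lower in members, with a median log2 fold change of -0.89.

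Immediate early and heat shock genes, which are switched on within minutes of stimulation and during tissue digestion, were lower as a group. Over this list, 0 of 28 tested genes were higher and 17 lower in members, with a median log2 fold change of -0.83. Junb stood at 1454, 2416 and 1787 CPM in control mice 1, 2 and 4, and 844, 1495 and 602 CPM in cKO mice 6, 7 and 8. The values in deeper cells were 3802, 3780.3 and 4320 and 2775, 2681 and 1874 CPM (log2 fold change -1.24, SE 0.13, adjusted p = 3.04e-18 by edgeR). Members were below in 6 of 6 mice. Fos (-0.98), Jun (-1.08) and Hspa1a (-1.48), a heat shock protein, were lower with adjusted p of 6.69e-12, 6.87e-08 and 6.15e-20 by edgeR. In members with a Malat1 UMI, fewer cells and without cKO mouse 7, this list had 0 higher and 5 lower of 28 tested. In members without one it had 0 higher and 25 lower of 28.

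Monocyte genes and receptors were lower too. Over the monocyte list, 1 of 16 tested genes were higher and 9 lower in members, with a median log2 fold change of -1.06. Il1b, an inflammatory cytokine, stood at 2074 ± 723 CPM against 4453 ± 2411 CPM (log2 fold change -1.04, SE 0.12, adjusted p = 2.68e-14 by edgeR), and Ccr2, the receptor used in the sort, at 214 ± 75.7 CPM against 383 ± 123 CPM (log2 fold change -0.87, SE 0.23, adjusted p = 0.00577 by edgeR). Lyz2, lysozyme, was the exception, at 15735 ± 3931 CPM against 11087 ± 3866 CPM (log2 fold change 0.51, SE 0.10, adjusted p = 7.95e-05 by edgeR). Ly6c2 stood at 212 ± 196 CPM and 221 ± 282 CPM and did not pass (adjusted p = 0.925 by edgeR). The monocyte list had 0 higher and 2 lower of 15 tested in members with a Malat1 UMI, fewer cells and without cKO mouse 7. It had 1 higher and 11 lower of 15 in members without one. Ccr2 was at 115 ± 49.5 CPM without a Malat1 UMI, 360 ± 135 CPM with one and 350 ± 76.1 CPM in unthinned deeper cells (n = 6 mice). Over the MHC class II list, 0 of 11 tested genes were higher and 5 lower in members, with a median log2 fold change of -0.50. H2-Ab1 was at 12840.2, 13287 and 13420 CPM in control mice 1, 2 and 4, and 7856, 9985 and 9779.8 CPM in cKO mice 6, 7 and 8. Deeper cells held 18107, 18782 and 18918 and 12769.5, 15335 and 14794 CPM (log2 fold change -0.59, SE 0.10, adjusted p = 1.17e-06 by edgeR). Cd74, the invariant chain, had a log2 fold change of -0.32 (adjusted p = 0.0246 by edgeR). Complement genes other than C1q had 0 higher and 1 lower of 8, the lower gene being Itgam, which encodes CD11b (log2 fold change -1.53, SE 0.30, adjusted p = 2.98e-05 by edgeR). CD11b was the surface marker of the sort.

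Several of the named lower genes had few or no UMIs in members. Uap1 had no UMI in the 259 members against 24 in thinned deeper cells, and was at least 3.02-fold lower when 3 counts over the members are taken as the floor. Gm26522 had 2 UMIs against 57, 10.7 times fewer per UMI (95% exact counting interval 2.84 to 90.9). Pira2, an activating receptor, had 2 against 40, 7.54 times fewer (1.96 to 64.4). Chd7, a chromatin remodeler, had 3 against 49, 6.16 times fewer (1.99 to 30.9). These intervals cover counting error only. Icam1, an adhesion molecule, with 15 UMIs in the 259 members, had a log2 fold change of -2.12, Csf2ra, a receptor subunit for GM-CSF, of -2.27, Tgfbr1, a TGF-beta receptor, of -1.99, Tmem173, which encodes STING, of -2.05 and Ddit4, an inhibitor of mTORC1, of -2.17. Their adjusted p by edgeR were 4.23e-07, 0.000311, 0.00196, 0.00265 and 0.000934. Csf2ra, Tmem173 and Ddit4 had 7 UMIs each in these members and Tgfbr1 8, with counting intervals from 2.02 to 12.8 times fewer. Tmem173 and Pira2 each passed in 5 of 10 alternatives, and Grk3 in 7 of 10. H2-Q4, Safb2 and Grk3 completed the named lower genes, with log2 fold changes of -2.48, -2.46 and -2.21. H2-Q4 belongs to a family of near-identical class I genes, among which reads can be split.

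**Figure D4:**
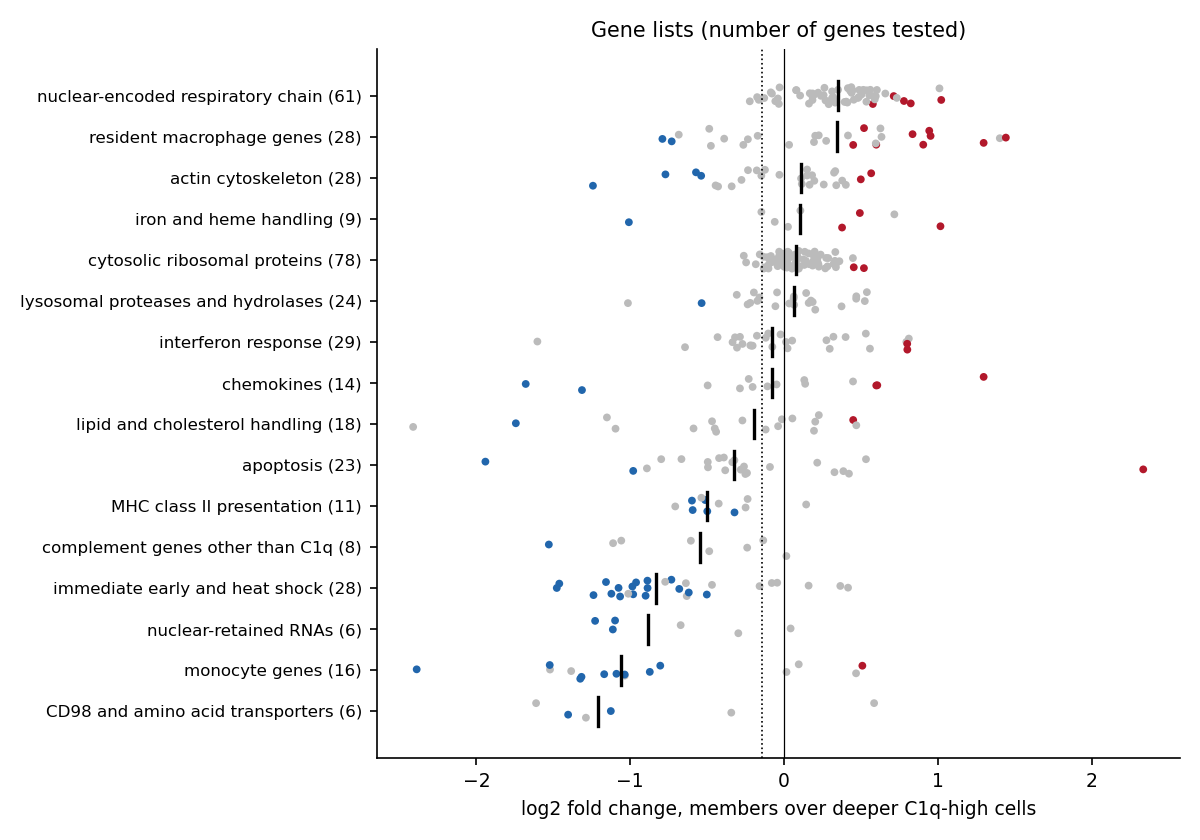
Log2 fold change of members over deeper C1q high cells for the tested genes of 16 lists, 1 point per gene, red where higher and blue where lower at an adjusted p under 0.05, with a bar at the median of each list and a dotted line at the median of all genes. The list medians run from -1.21 for CD98 and amino acid transporters to 0.35 for the respiratory chain.

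Apoptosis genes were described as a list of their own. Over it, 1 of 23 tested genes were higher and 2 lower in members, with a median log2 fold change of -0.32, the higher gene being Birc5. Over the list of lipid and cholesterol handling, 1 of 18 tested genes were higher and 1 lower in members, with a median log2 fold change of -0.20. Over the list of interferon response genes, 2 of 29 tested genes were higher and 0 lower in members, with a median log2 fold change of -0.08, the higher genes being Bst2 and Ly6e.

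Markers of other cell types ranged from none to a few genes that many members held. The mast cell and epithelial lists had no UMI in any of the 280 members. Of the neutrophil list, 5 of 10 genes were at 0 and the summed level was 0 to 116 CPM over the 8 mice. The dendritic cell list had 6 of 12 genes at 0 and summed to 233 to 563 CPM, and 2 of its genes, Xcr1 and Clec9a, were kept at 0 by the rule. Most of its UMIs were of Ifi205 and Naaa. The lymphoid and plasma cell list had 9 of 12 genes at 0, and its sum of 0 to 1015 CPM was mostly Jchain, an immunoglobulin chain of plasma cells. Of the 9, Cd3d, Cd3e and Cd3g were kept at 0 by the rule. Jchain had a UMI in 70 of 280 members, and at 631 UMIs in 15.7% of members, 13.2% of deeper C1q high cells and 14.4% of other cells of low depth. Stromal markers summed to 142 to 549 CPM with none at 0, mostly Gsn, and the rule capped Dcn, Col3a1 and Col1a2 among them. Endothelial markers summed to 0 to 58.2 CPM with 5 of 7 at 0, and eosinophil markers to 0 to 142 CPM with 3 of 5 at 0.

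The genes that were higher in members had shorter transcripts. The longest annotated transcript (GENCODE vM21 basic, 4856 of 4865 genes with a length) had a median of 1182 bases in the 70 higher genes, 2714 in the lower genes and 2532 in all genes tested. Across genes, the log2 fold change and this length had a Spearman rho of -0.347, and genes are not independent replicates. Among genes with a mean of at least 200 CPM, 22 of 204 genes under 1000 bases were higher and 3 lower. From 4000 bases upward, 0 of 46 were higher and 13 lower. Length therefore moved with the difference, and its part in the result was not tested.

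The depth difference in C1q high cells was set against that of all other cells in the same mice (edgeR interaction term, 4 sums per mouse, chosen after the values were seen). The other cells are of mixed types, and their make-up differed with depth. Unthinned, their lymphoid and plasma markers averaged 858 CPM at low depth and 9051 CPM in other deep cells, and dendritic cell markers 741 and 2268 CPM (n = 6 mice). The part of this in the differences below was not tested. Of 8604 genes, 99 had a higher depth difference in C1q high cells (1.15%) and 163 a lower one (1.89%). Malat1 was at 9812 ± 4099.9 CPM in members, 19514 ± 3565 CPM in deeper C1q high cells, 25365 ± 5632 CPM in other cells of low depth and 15606 ± 1547 CPM in other deep cells (log2 difference of -1.65, SE 0.16, adjusted p = 2.5e-19 by edgeR). Xist (-1.76), Neat1 (-1.42) and Zeb2 (-2.17), a transcription factor of macrophages, went the same way. Lyz2 was at 15735 ± 3931 CPM in members, 11087 ± 3866 CPM in deeper C1q high cells, 8789 ± 3124 CPM in other cells of low depth and 12738 ± 1298 CPM in other deep cells (log2 difference of 1.18, SE 0.16, adjusted p = 2.64e-09 by edgeR). Cd68, a lysosomal membrane protein of macrophages, Prdx1, Ftl1 and Tmsb4x also had a higher depth difference in C1q high cells, by 1.40, 1.55, 0.87 and 0.59 on the log2 scale. In other cells Malat1 was higher at low depth, and in C1q high cells it was lower. The markers chose or led the cells and are given without a test. Their log2 difference was 1.04 (SE 0.31) for Ccl8, -0.29 (SE 0.30) for Pf4 and -0.47 (SE 0.60) for Folr2. The estimates for Pf4 and Folr2 were thus no higher in C1q high cells than in others. Unthinned, Folr2 had 7 UMIs in the other cells of low depth and 21 in other deep cells, and Pf4 54 and 480. So few UMIs cannot show whether the depth difference of these markers was alike. Of the immediate early and heat shock list, 18 of 29 had a lower depth difference in C1q high cells.

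Slc3a2, the targeted gene (GRCm38, chromosome 19, 8706882 to 8723369), was read from the 3' end of its RNA, and tags outside the floxed exon do not check the deletion. Members held 58 UMIs of it in 43 cells. It stood at 151, 153 and 247 CPM in control mice 1, 2 and 4, and 154, 228 and 116 CPM in cKO mice 6, 7 and 8, and at 80.4 and 283 CPM in the few members of control mouse 3 and cKO mouse 5. The conditions overlapped in members (log2 fold change -0.14, SE 0.42, adjusted p = 0.963 by edgeR). Between depth classes Slc3a2 was lower in members, at 175 ± 50.9 CPM against 376 ± 152 CPM (log2 fold change -1.13, SE 0.24, adjusted p = 0.000253 by edgeR). Split by Malat1, Slc3a2 was at 98.3 ± 48.3 CPM in members without a Malat1 UMI and 301 ± 126 CPM in members with one. Unthinned deeper cells held 378 ± 107 CPM (n = 6 mice). Of the list of CD98 partners and amino acid transporters, 2 of 6 tested genes were lower in members, Slc3a2 and Slc38a2, a glutamine transporter. This list had 0 lower of 6 in members with a Malat1 UMI, a fit of fewer cells and without cKO mouse 7. It had 4 lower of 6 in members without one. The EYFP reporter, which marks the Cx3cr1 locus, was detected in 4.64% of members and 6.93% of deeper cells at 631 UMIs, against 0.327% of other cells of low depth, and did not pass between depth classes (log2 fold change -0.68, adjusted p = 0.37 by edgeR). Cx3cr1 itself had 4 UMIs in all members and was not tested.

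The share of members was then compared between conditions over the 8 mice. Of the C1q high cells, members made up 23.7%, 20%, 33.3% and 27.1% in control mice 1 to 4 and 44%, 36.3%, 31.7% and 38.9% in cKO mice 5 to 8. The groups overlapped through control mouse 3, of which 30 C1q high cells were captured. The means were 26.0 ± 5.66% and 37.7 ± 5.15% (SD, n = 4 and 4), and the difference of 11.7 percentage points did not pass (exact permutation test, two-sided, p = 0.0571, where 0.0286 is the smallest value possible). Without control mouse 3 the difference was 14.1 points (exact permutation test, two-sided, 35 arrangements, p = 0.0286). This exclusion removed the mouse that made the groups overlap. With any other mouse left out instead, the difference did not pass (exact permutation test, two-sided, 35 arrangements, p = 0.0571 to 0.0857). Of all cells kept, members made up 9.23 ± 1.72% in control and 9.86 ± 2.73% in cKO mice (exact permutation test, two-sided, p = 0.771). C1q high cells of any depth were 35.9 ± 4.34% of cells kept in control and 25.8 ± 3.79% in cKO mice (exact permutation test, two-sided, p = 0.0286). Among cells outside the C1q rule, 12.9 ± 3.53% and 15.0 ± 2.33% were below 2000 UMIs (exact permutation test, two-sided, p = 0.429). The last 2 comparisons were chosen after the values were seen.

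Within members, 1 gene passed the test between conditions, an interferon response gene that was higher in cKO mice. Of 1693 genes tested in 3 against 3 mice, 1 was higher (0.0591%) and 0 were lower in the edgeR test, where 72 and 61 had an unadjusted p under 0.05, and DESeq2 called 2 higher and 0 lower. The gene was Ifi27l2a, an interferon-induced mitochondrial protein. It stood at 672, 767 and 1217 CPM in control mice 1, 2 and 4, and 3224, 4486 and 3939 CPM in cKO mice 6, 7 and 8, with 885 and 2622 CPM in control mouse 3 and cKO mouse 5. The groups did not overlap in all 8 mice (log2 fold change 2.16, SE 0.24, adjusted p = 0.000241 by edgeR). It was detected in 172 of 280 members, and in deeper C1q high cells its cKO effect was 1.96 (adjusted p = 0.000207 by edgeR).

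Over the interferon list, all 15 tested genes had a log2 fold change above 0 in members, with a median of 1.69, against -0.01 for all genes. In 8 of the 15 the 3 cKO mice lay above the 3 control mice without overlap, and in 6.08% of all genes tested. The list summed to 3045, 3547, 2574 and 5931 CPM in the members of control mice 1 to 4 and 8998, 9033, 13255 and 12709.8 CPM in those of cKO mice 5 to 8, with no overlap. Ly6a, an interferon-inducible surface antigen, was at 473 ± 415 CPM over the 6 mice and did not pass (log2 fold change 2.68, SE 0.54, adjusted p = 0.0876 by edgeR). In deeper C1q high cells of the same mice, 11 of 26 interferon genes were higher in cKO, with a median of 1.54, beside 0.641% of all genes higher and 0.0739% lower.

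**Figure D5:**
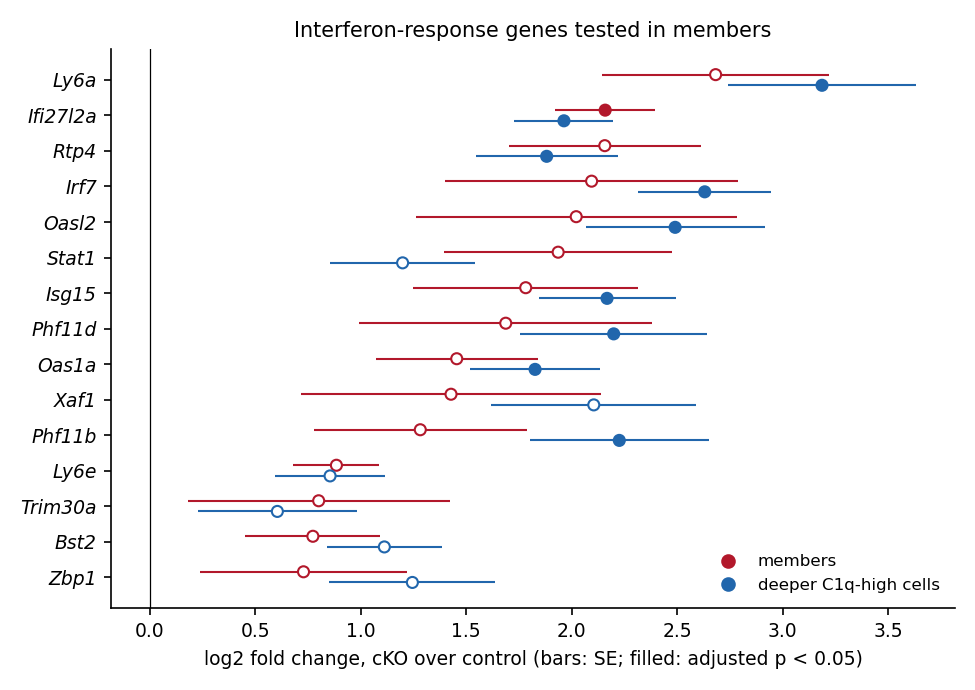
Log2 fold change of cKO over control for the 15 interferon response genes tested in members, in members (red) and in deeper C1q high cells (blue), with bars for the SE and filled points for an adjusted p under 0.05. All 15 points of members lie above 0, from 0.73 for Zbp1 to 2.68 for Ly6a, and the point of Ifi27l2a at 2.16 is filled.

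Of the MHC class II list, in 5 of 10 tested genes the cKO mice lay below the control mice without overlap, against 6.62% of all genes, and none passed the adjusted test. The list had a median of -0.34 in members and -0.25 in deeper cells. Of the ribosomal protein list, the cKO mice lay below without overlap in 12 of 78 genes, and the median was -0.11. Immediate early and heat shock genes had a median of -0.56 and 4 of 24 without overlap below. Apoptosis genes had a median of 0.09 over 8 genes, of which 0 passed.

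The effect of cKO differed between members and deeper cells for 3 of 4871 genes in the interaction test of edgeR, 1 higher (0.0205%) and 2 lower (0.0411%). The higher one was Ccl8, a marker of the cells. In members it was at 2908, 3125 and 3079 CPM in control and 4478, 4689 and 5297 CPM in cKO mice, without overlap (log2 fold change 0.68, SE 0.17, adjusted p = 0.175 by edgeR). In deeper cells it was at 807, 1107 and 161 and 168, 169.8 and 331 CPM (log2 fold change -1.70, SE 0.49, adjusted p = 0.199 by edgeR). The deeper cells of control mouse 4 lay below those of the cKO mice. The difference of the effects was 2.12 on the log2 scale (SE 0.29, adjusted p = 8.59e-10 by edgeR). Plac8, a monocyte gene, had a cKO effect of -0.51 in members and 1.24 in deeper cells, with a difference of -1.68 (adjusted p = 0.00673 by edgeR). Saa3, an acute phase protein of macrophages, rose in deeper cells of cKO mice by 2.67 and had 1.47 in members, with a difference of -1.53 (adjusted p = 0.00673 by edgeR). Without control mouse 1 the difference of Saa3 was 0.36, so its direction rests on that mouse. DESeq2 called 0 genes in this comparison, with 20 and 12 genes at an unadjusted p under 0.05.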

How the data were processed

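Single-cell UMI counts of 8 libraries, 1 per mouse, were deposited by the authors as whole-number counts per gene and cell of all libraries merged, without normalization. Per the submitters' processing notes in the labels they were made with Cell Ranger, STAR 2.5.3a, R 3.5.0 and mm10, and per the study's methods an EYFP sequence was added to the reference. Libraries were prepared on the same day and cartridge. Cells were joined to mice by the ending of their column name. Depth in the cells kept was 497531 to 3762314 UMIs per mouse.

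The members and the gene lists were chosen with earlier results of these data known. Counts were summed per mouse and class of cells from at least 20 cells, after deeper cells had been thinned without replacement to depths drawn from the members of their mouse. Genes with more than 1 CPM in at least 3 sums and a UMI in at least 20 cells entered edgeR 4.0.16 (TMM, glmQLFit, glmQLFTest; R 4.3.3), with the mouse as a block between depth classes, and p-values were adjusted by Benjamini-Hochberg over all genes tested. DESeq2 1.42.0, other filters, limits, thinning seeds, doublet calls (Scrublet in scanpy 1.11.5) and leaving out each mouse were alternatives. The requirement of cells with a Malat1 UMI or without one, the removal of shared barcode codes and the comparison with other cells were added after the data were seen. Fits split by Malat1 used sums of at least 10 cells. Shares were compared by exact permutation tests over 70 arrangements of the mice, or 35 with 1 mouse left out (scipy 1.17.1). Genes named are the 12 with the largest rise and the 12 with the largest fall past a false discovery rate of 0.05 and of the same sign in every mouse, or without overlap between conditions, the 5 markers, Slc3a2, EYFP, Cx3cr1, Adgre1, Ccr2 and Ly6c2, and up to 4 genes of each list with the most UMIs plus those past the threshold. Zeb2, Cd68, Prdx1, Klf6, Mki67, Top2a, Pclaf, Mrc1, Ly6a and Zbp1 are named outside this rule, after their values were seen. The test code was run on simulated counts with the same spread for every gene and no differences between mice. Such counts do not check the mouse block or the spread in these data. Gene positions and transcript lengths were taken from GENCODE vM21 (GRCm38, the same assembly as mm10).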

Additional observations from a re-analysis of the deposited data

Results flagged for a closer look

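Of 74 sets of 4 mice checked for a value that stands apart, 6 held one, where chance marks about 1 in 20. Of these, 5 were of cKO mouse 5, which gave 11 members. Its members had a median mitochondrial share of 1.02%, above the 3 other cKO mice, whose values were 0.476%, 0.468% and 0.475%. Its complement genes other than C1q summed to 2479.8 CPM, its actin genes to 46975 CPM and its neutrophil markers to 0 CPM, each apart from the other cKO mice, and Ccl8 stood at 10486 CPM against 4478, 4689 and 5297 CPM. This mouse entered no comparison of summed counts with an adjusted p, except where all mice or sums of at least 10 cells were used. In cKO mouse 8, Folr2 stood at 427 CPM in members, against 213, 179 and 177 CPM in cKO mice 5, 6 and 7.

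The effect of cKO differed between members and deeper C1q high cells by 2.12 for Ccl8, -1.68 for Plac8 and -1.53 for Saa3 on the log2 scale, each past an adjusted p of 0.05 in the edgeR interaction test. The depth difference of C1q high cells differed from that of other cells for 99 genes in the higher and 163 genes in the lower direction by the same kind of test.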

How the results depend on the processing

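Between members and deeper cells, against 70 genes higher and 140 lower, DESeq2 called 33 and 58, all of them shared with edgeR, and no low-count filter gave 33 higher, of which 31 were shared. Deeper cells not thinned gave 34 higher and 410 lower, of which 31 and 138 were shared. Without the replicate block for the mouse, 40 and 79 genes were called, all shared. The mouse pairs the depth classes, since both come from the same animal. No mouse pairs the conditions, since the labels number control mice 1 to 4 and cKO mice 5 to 8. Members with a Malat1 UMI, in fewer cells and without cKO mouse 7, gave 0 higher and 40 lower (21 shared), and Hpgd then stood at -0.25. Members without one gave 535 lower, of which 134 were shared. Leaving out 1 mouse gave 43 to 66 higher and 101 to 144 lower, with the 43 without control mouse 1. For cKO against control in members, against 1 higher and 0 lower, DESeq2, C1q of at least 100 per 10000 and an upper limit of 1500 UMIs gave 2 higher each. Leaving out shared barcode codes gave 3, all mice or at least 10 cells per sum 5, members without a Malat1 UMI 7 higher and 1 lower, and no low-count filter 12 and 6. Leaving out 1 mouse gave 1 to 11 higher and 0 to 2 lower, with the 11 and 2 without control mouse 4, and Ifi27l2a was among the genes called under each of these alternatives. For cKO in deeper cells, against 26 higher and 3 lower, cells not thinned gave 68 and 13, another thinning seed 5 lower, and leaving out 1 mouse 13 to 90 higher and 2 to 54 lower, with 13 higher without control mouse 1, 15 without cKO mouse 7 or 8, and 90 and 54 without control mouse 4. For the difference of effects, against 1 higher and 2 lower, DESeq2 called 0 and 0, no low-count filter 5 and 0, cells not thinned 5 lower, another seed 4 lower, and leaving out 1 mouse 1 to 4 higher and 0 to 4 lower. With 1 mouse left out, the difference for Saa3 ran from -2.17 to 0.36, and it stood at 0.36 without control mouse 1. For the depth difference against other cells, with 99 higher and 163 lower, DESeq2 called 51 higher and leaving out 1 mouse gave 50 to 89 higher and 69 to 167 lower, with 54 and 69 without control mouse 1, 108 lower without control mouse 2, and 50 and 56 higher without cKO mice 6 and 7. The members' share of C1q high cells differed by 9.59 to 14.1 points with 1 mouse left out, and their share of kept cells, 0.635 points higher in cKO, by -1.26 with an upper limit of 2500 UMIs, by -0.692 with no mitochondrial limit and by -0.495 to 1.72 with 1 mouse left out, the lowest without cKO mouse 5. The cause of these changes was not tested. Depth limits the comparison of conditions in members: 1693 genes could be tested there, against 4057 in deeper cells.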
